A study of Mus musculus with 6 samples.

Results

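RANK and the M-CSF receptor, the receptors through which a macrophage is told to become an osteoclast, were followed here with their proximal adaptors in bulk RNA-seq. The 10 genes were chosen by name, as the rows of the deposited table whose Ensembl identifier maps to Tnfrsf11a, Csf1r, Traf6, Traf3, Traf2, Tab1, Tab2, Gab2, Grb2 or Cbl, and they are 10 of the 23504 genes listed. BMMs, macrophages grown from the bone marrow of C57BL/6 mice, were treated with DASA-58, an activator of the glycolytic enzyme PKM2, or with the solvent DMSO, and RNA was taken after 3 days. Each group had 3 libraries. The study's methods place the cells in a 6-well plate and describe the mice as males aged 6 to 8 weeks. The labels name the compound DASA-58, whereas the design text calls it DASA-48, and the concentration used for these libraries is not given in the sources used here. The design text names RANKL for the DASA-58 group only, while the study's results describe induction with RANKL in both groups, so the RANKL exposure of the DMSO libraries is not certain. The sources do not say whether the 3 libraries of a group came from separate animals or cultures, so the p-values measure the spread between these libraries, which may be technical.

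RANK, encoded by Tnfrsf11a, is a receptor of the TNF receptor superfamily that binds RANKL. It has no enzymatic activity of its own and recruits TRAF adaptor proteins, of which TRAF6 is the main one in osteoclast precursors. TRAF6 engages the kinase TAK1 through the subunits TAB1 and TAB2, and this leads to NF-kB and MAP kinase activity. The M-CSF receptor, encoded by Csf1r, is a receptor tyrosine kinase that keeps macrophages alive and dividing. GRB2, GAB2 and the ubiquitin ligase CBL are recruited to it, the former pair to pass the signal on and the latter to tag the receptor for internalisation. GAB2 also associates with RANK.

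Tnfrsf11a fell with DASA-58, to 78.9% of its DMSO level, and Csf1r, all 3 TRAF genes, both TAB genes, Gab2, Grb2 and Cbl did not pass the test. The values are FPKM, which counts fragments relative to exon length and to the fragments of the whole library. Comparisons between libraries still depend on how the libraries are scaled. A change was called when the adjusted p was under 0.05 in limma on log2(FPKM + 1), fitted over the 10965 genes that averaged 1 FPKM or more. All 10 genes met that limit. Of them, 1 was called lower and 0 were called higher, against 7.28% of all genes tested called lower and 4.24% called higher. At an unadjusted p under 0.05 the counts depended on how the libraries were scaled and on single libraries. They were 4 lower (Tnfrsf11a, Traf6, Traf2 and Tab2) and 0 higher in the same fit, where 18.0% of all genes tested were lower and 9.83% higher at that limit. They were 1 lower (Tnfrsf11a) and 3 higher (Csf1r, Gab2 and Cbl) when each library was centred on its median, where 12.8% of all genes were lower and 13.6% higher, and also 1 and 3 with quantile normalization and with a trimmed mean of log ratios. With voom weights they were 4 and 2. With 1 library left out, 1 to 3 were lower and 0 or 1 was higher, so the 4 lower were not kept. At the unadjusted limit, the share over all genes tested was computed for the same fit and for median centring only. Under each of these settings 1 lower gene, Tnfrsf11a, and 0 higher genes passed the adjusted limit. The median log2 fold change was -0.07 over the 10 genes and -0.03 over all genes tested. Called genes over the whole table split into 798 lower and 465 higher, and into 504 lower and 597 higher when each library was centred on its median.

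The libraries held between 18191560 and 18968556 fragments, as recovered from the steps of the FPKM values. Genes that mark macrophages were abundant in all 6 libraries, with a summed level of 16300 to 17200 FPKM with DMSO and 17300 to 19600 FPKM with DASA-58, most of it from Lyz2. Of the 9 macrophage markers, 4 rose (Adgre1, Cd68, Mertk and Mrc1) and 1 fell (Cd14). Adgre1, Mrc1 and Cd14 were called under all 18 alternative settings tried, Mertk under 15 and Cd68 under 11. The count that rose went from 2 without a filter on low values to 7 with voom weights. Osteoclast markers were present in both groups and lower with DASA-58, where their summed level was 449 to 467 FPKM against 778 to 833 FPKM with DMSO. All 9 osteoclast markers tested fell, and the 10th, Calcr, was under the expression limit. Neutrophil markers summed to 126 to 132 FPKM with DMSO and 102 to 106 FPKM with DASA-58. Of the 6 tested, 3 fell (S100a8, S100a9 and Camp), and 2 with any 1 library left out. The defining marker Ly6g had 0 to 1 fragment per DMSO library and 0 in every DASA-58 library. These counts are below the 3 fragments that a count of 0 allows, so no difference in Ly6g was detectable at this depth. Markers of stromal cells or osteoblasts summed to 32.2 to 34.8 FPKM and 33.3 to 34.3 FPKM, nearly all from Col1a1 and Col1a2, and 0 of the 2 tested were called by limma, by voom weights or at an unadjusted p under 0.05. T or NK cell markers summed to 5.7 to 6.46 FPKM and 5.64 to 6.27 FPKM, nearly all from Cd4, B cell markers to 1.8 to 2.13 FPKM and 2.19 to 2.45 FPKM, and dendritic cell markers to 1.5 to 1.56 FPKM and 1.42 to 1.51 FPKM. Of the erythroid markers only Klf1 was in the table, at no more than 0.243 FPKM.

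The stretch of genome just before the start of Tnfrsf11a is shown because it was the only one of the 10 genes with a called change, and that of Traf6 because its product is the adaptor that RANK depends on most. Both are the 250 bases before the RefSeq start on GRCm38.p6, given 5′ to 3′ on the strand of the gene, and capitals mark GGGCGG (GC box) and GAGGAA (a core bound by PU.1) on either strand. The window of Tnfrsf11a is chr1:105780473-105780722 on the plus strand and that of Traf6 is chr2:101678170-101678419 on the plus strand.
Tnfrsf11a: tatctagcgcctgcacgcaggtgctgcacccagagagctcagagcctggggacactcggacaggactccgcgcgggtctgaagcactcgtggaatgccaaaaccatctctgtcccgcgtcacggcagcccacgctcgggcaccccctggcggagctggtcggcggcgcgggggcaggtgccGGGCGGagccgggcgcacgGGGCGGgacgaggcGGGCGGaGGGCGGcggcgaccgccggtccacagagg
Traf6: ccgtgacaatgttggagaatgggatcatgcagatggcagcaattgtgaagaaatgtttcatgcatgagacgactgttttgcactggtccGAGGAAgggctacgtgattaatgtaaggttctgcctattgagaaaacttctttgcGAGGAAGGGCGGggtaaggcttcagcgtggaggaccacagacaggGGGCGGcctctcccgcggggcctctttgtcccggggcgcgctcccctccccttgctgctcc
The Tnfrsf11a window is 73.6% G and C and holds 4 GC boxes, while the Traf6 window is 56.4% G and C and holds 2. GAGGAA occurs 0 times in the Tnfrsf11a window and 2 times in the Traf6 window, at one place directly beside a GC box. Neither window holds TGANTCA (AP-1) or CACGTG (an E-box). Over 32851 RefSeq promoter windows of the same length, searched on both strands, 32.7% held GGGCGG, 23.3% GAGGAA, 6.75% TGANTCA and 6.02% CACGTG. The letters describe the window and not a bound site, and binding was not measured. Windows were read for 7 of the 10 genes, with 2 windows each for Tab2 and Grb2. Those of Traf3 and Cbl and 1 of the 2 Tab2 windows also held GC boxes. GAGGAA was held by those of Traf2 and Cbl, by the other Tab2 window and by 1 of the 2 Grb2 windows.

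Tnfrsf11a (ENSMUSG00000026321, chr1:105780718-105847981, plus strand, GRCm38) measured 23.8, 22.1 and 24.5 FPKM in the DMSO libraries and 18.6, 18.9 and 18.2 FPKM in the DASA-58 libraries. Every DASA-58 library lay below every DMSO library, and the 3 DASA-58 values were closer together than the 3 DMSO values. The mean went from 23.5 ± 1.28 to 18.5 ± 0.355 FPKM (SD, n = 3 each), a log2 fold change of -0.32 (SE 0.044, 95% interval -0.43 to -0.22) with an adjusted p of 0.0039 in limma. These levels rest on 2490 to 2675 fragments per DMSO library and 2053 to 2096 per DASA-58 library. The change was called under all 18 alternative settings tried, with log2 fold changes between -0.37 and -0.27. With 3 libraries a side the exact two-sided permutation test cannot go below p = 0.1, which is the value it gave. In bulk RNA, fewer cells that carry a transcript and less of it per cell cannot be told apart. The osteoclast markers moved in the same direction over the same libraries by a median log2 fold change of -0.87, as did the neutrophil markers by a median of -0.27, and their part in the lower Tnfrsf11a was not tested.

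Csf1r (ENSMUSG00000024621) measured 325, 319 and 321 FPKM with DMSO and 346, 325 and 337 FPKM with DASA-58. The groups did not overlap, but the lowest DASA-58 library exceeded the highest DMSO library by 0.23 FPKM only. The mean was 322 ± 2.92 FPKM in the DMSO libraries against 336 ± 10.3 FPKM after DASA-58 (SD, n = 3 each). The log2 fold change of 0.06 (SE 0.028, 95% interval -0.004 to 0.128) did not pass the test, with an adjusted p of 0.2 in limma. At 28571 to 31792 fragments per library, it was the most deeply sampled of the 10 genes. Macrophage markers, of which Csf1r is often counted as one, had a median log2 fold change of 0.15 over the same libraries, and their part in the Csf1r values was not tested.

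**Figure D1:**
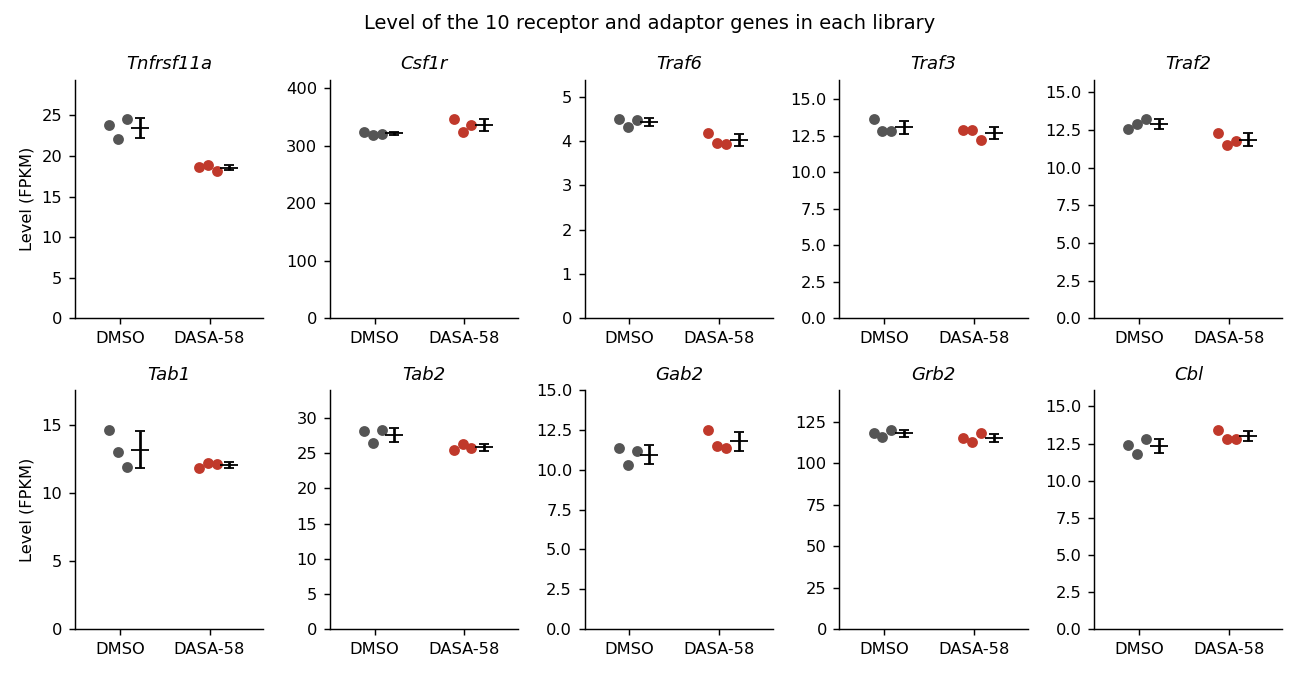
Level of each of the 10 genes in FPKM (vertical axes from 0, a scale for each gene) in the 3 DMSO libraries (grey points) and the 3 DASA-58 libraries (red points), with the mean and SD as black marks. Tnfrsf11a goes from 22.1 to 24.5 FPKM with DMSO to 18.2 to 18.9 FPKM with DASA-58, and in Traf3, Tab1, Gab2, Grb2 and Cbl the groups overlap.

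The point estimates of the receptors had opposite signs, and their ratio was compared library by library. The log2 ratio of Tnfrsf11a to Csf1r was -3.77, -3.85 and -3.71 with DMSO and -4.22, -4.11 and -4.22 with DASA-58. All 3 DASA-58 libraries lay below all 3 DMSO libraries. The mean ratio changed from -3.78 ± 0.073 to -4.18 ± 0.062 (SD, n = 3 each), a difference of -0.40 on the log2 scale, with an exact permutation p of 0.1, the smallest that 3 against 3 allows. In linear terms Csf1r transcripts stood 13.7-fold above Tnfrsf11a with DMSO and 18.1-fold above it with DASA-58. A ratio within a library does not depend on how the library was scaled, and leaving out any 1 library kept the difference between -0.44 and -0.37.

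The same ratio was taken against each of the 8 adaptors. Tnfrsf11a was lower relative to every one of them with DASA-58, and in all 8 cases the 2 groups of libraries did not overlap. The differences in log2 ratio were -0.20 against Traf6, -0.22 against Traf2, -0.30 against Traf3, -0.21 against Tab1, -0.24 against Tab2, -0.45 against Gab2, -0.30 against Grb2 and -0.41 against Cbl, each with an exact permutation p of 0.1. The 9 ratios share 1 numerator and are not independent of each other. Tnfrsf11a itself did not overlap between the groups, and the log2 fold changes of the adaptors lay between -0.12 and 0.10. The separation of the ratios is therefore no further result about the adaptors. How often other genes as denominator would give such a separation was not computed. The difference against Tab1 ranged from -0.28 to -0.11 as libraries were left out in turn. It was -0.11 without DMSO library 3, which had the lowest Tab1 of the DMSO libraries.

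**Figure D2:**
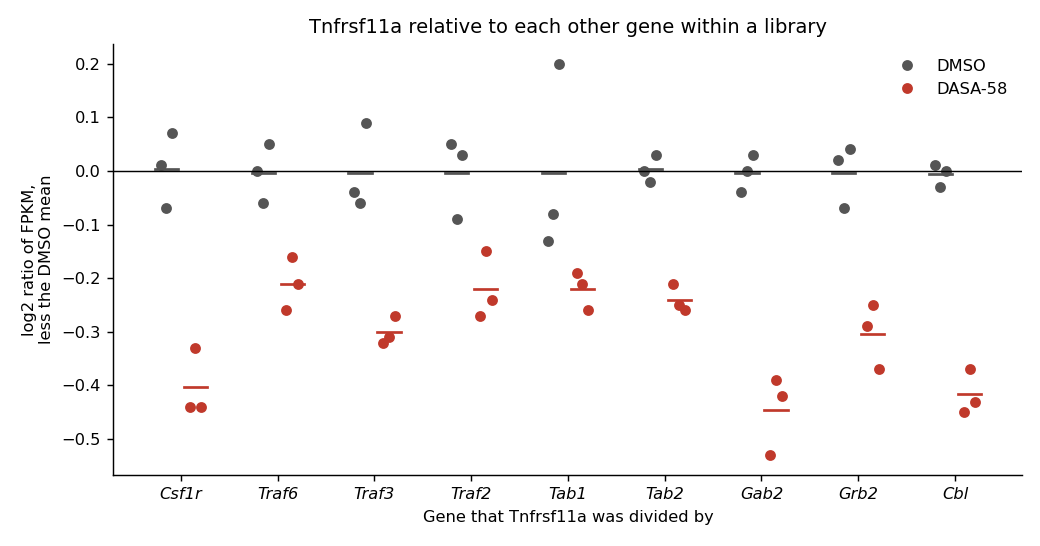
The log2 ratio of Tnfrsf11a to each of the 9 other genes in each library, less the mean ratio of the DMSO libraries (vertical axis), for DMSO (grey) and DASA-58 (red), with short lines at the group means. All DASA-58 points lie below the DMSO points of the same gene, by 0.45 for Gab2 and by 0.20 for Traf6 at the means.

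Among the TRAF adaptors, none passed the test, and the point estimates of all 3 were below 0. Traf6 (chr2:101678429-101701669, plus strand) measured 4.49, 4.33 and 4.47 FPKM with DMSO and 4.18, 3.96 and 3.94 FPKM with DASA-58, without overlap. Its mean was 4.43 ± 0.0887 and 4.03 ± 0.135 FPKM (SD, n = 3 each), or 91.0% of DMSO, and its log2 fold change of -0.11 (SE 0.047) had an adjusted p of 0.18 in limma. It was the lowest of the 10 genes in both groups, with 642 to 649 fragments per DMSO library and 568 to 621 per DASA-58 library. Traf2 (chr2:25517982-25546940, minus strand), which binds RANK and other receptors of the superfamily, measured 12.6, 12.9 and 13.2 FPKM with DMSO and 12.3, 11.5 and 11.8 FPKM with DASA-58. These groups did not overlap either, and the log2 fold change of -0.11 (95% interval -0.20 to -0.02) had an adjusted p of 0.11. Traf3 (chr12:111166370-111267153, plus strand), which restrains the noncanonical NF-kB pathway, measured 13.6, 12.8 and 12.8 FPKM with DMSO and 12.9, 12.9 and 12.2 FPKM with DASA-58. Its groups overlapped, with a log2 fold change of -0.04 (SE 0.042) and an adjusted p of 0.58.

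The TAK1-binding subunits did not pass the test. Tab2 (chr10:7905653-7956230, minus strand), which binds ubiquitin chains and so links TRAF6 to TAK1, measured 28.2, 26.5 and 28.3 FPKM with DMSO and 25.5, 26.4 and 25.7 FPKM with DASA-58. The highest DASA-58 library lay just under the lowest DMSO library. Its mean was 27.7 ± 1.02 and 25.8 ± 0.484 FPKM (SD, n = 3 each), with a log2 fold change of -0.09 (95% interval -0.18 to -0.01) and an adjusted p of 0.14. Tab1 (chr15:80133127-80161707, plus strand), which activates TAK1, measured 14.6, 13.0 and 11.9 FPKM with DMSO and 11.8, 12.2 and 12.1 FPKM with DASA-58. The DMSO libraries spread over a wider range than the DASA-58 libraries and overlapped them. The log2 fold change was -0.12 (SE 0.066) with an adjusted p of 0.28, so that Tab1 had a point estimate like that of Traf6 and the largest error of the 10 genes.

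The docking protein, adaptor and ubiquitin ligase of the M-CSF receptor overlapped between the groups in every case. Gab2 (chr7:97081586-97308946, plus strand) measured 11.4, 10.3 and 11.2 FPKM with DMSO and 12.5, 11.5 and 11.4 FPKM with DASA-58, a log2 fold change of 0.10 (SE 0.053) with an adjusted p of 0.28. Cbl (chr9:44142976-44234049, minus strand) measured 12.4, 11.8 and 12.8 FPKM with DMSO and 13.4, 12.8 and 12.8 FPKM with DASA-58, a log2 fold change of 0.07 (SE 0.042) with an adjusted p of 0.34. Grb2 (chr11:115644045-115708597, minus strand) measured 118, 116 and 120 FPKM with DMSO and 115, 113 and 118 FPKM with DASA-58, a log2 fold change of -0.04 (SE 0.028) with an adjusted p of 0.41. None of these 3 passed the adjusted limit under any setting, although Gab2 and Cbl were higher at an unadjusted p under 0.05 with median centring, quantile normalization and the trimmed mean, and Gab2 also with voom weights.

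In all, 5 of the 10 genes had groups that did not overlap (Tnfrsf11a, Csf1r, Traf6, Traf2 and Tab2), or 50.0%, against 33.4% of all genes tested. None of the 10 reached a log2 fold change beyond 1 in size, a limit that 5 genes of the whole table passed with an adjusted p under 0.05 in limma and 6 with an unadjusted one. No point estimate of the 10 genes changed sign under any alternative setting.

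**Figure D3:**
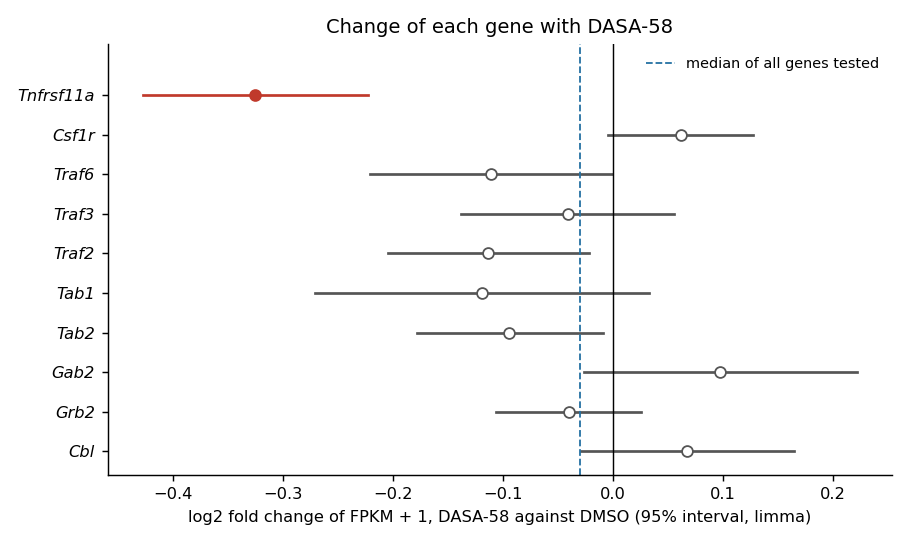
The log2 fold change of FPKM + 1 with DASA-58 against DMSO (horizontal axis) for each of the 10 genes, with its 95% interval from limma. The filled red point is the gene called at an adjusted p under 0.05, open points are genes not called, and the dashed line at -0.03 is the median of all genes tested. The interval of Tnfrsf11a, from -0.43 to -0.22, lies to the left of that line, and that of Csf1r spans 0.

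Levels per length put the 10 genes in nearly the same order in both groups. Csf1r was highest with DMSO, at 322 FPKM, followed by Grb2 at 118, Tab2 at 27.7 and Tnfrsf11a at 23.5 FPKM, and the ranges of these neighbours did not overlap. Tab1, Traf3, Traf2 and Cbl followed between 13.2 and 12.4 FPKM, and within these 4 each overlapped its neighbour in the order. Gab2 came after them, without overlap with Cbl, at 11.0 FPKM and Traf6 last at 4.43 FPKM. With DASA-58 the order of the upper 4 and of the last was the same, and Cbl, at 13.0 FPKM, stood ahead of Traf3, Tab1, Traf2 and Gab2, of which Cbl and Traf3 overlapped, as did Tab1, Traf2 and Gab2 in turn.

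Of the ligands and their decoy, only Csf1 was expressed enough to be tested. Csf1, which encodes M-CSF, measured 3.41, 3.16 and 2.83 FPKM with DMSO and 3.73, 3.87 and 3.65 FPKM with DASA-58, without overlap. Its log2 fold change of 0.20 (SE 0.065) had an adjusted p of 0.084 in limma and did not pass. Tnfsf11, which encodes RANKL, had 0 to 3 fragments in each DMSO library and 1 to 3 in each DASA-58 library, at or below the 3 fragments that a count of 0 allows, so that no difference was detectable at this depth. Tnfrsf11b, the decoy receptor osteoprotegerin, measured 0.696, 0.678 and 0.916 FPKM with DMSO and 1.02, 0.624 and 0.992 FPKM with DASA-58, with overlap. Lgr4, a further receptor of RANKL, lay between 0.185 and 0.271 FPKM with DMSO and between 0.243 and 0.278 FPKM with DASA-58. Il34, the other ligand of the M-CSF receptor, had 3 to 10 fragments per DMSO library and 1 to 3 per DASA-58 library.

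Downstream of RANK, the 20 other genes listed were all tested, and 4 were lower and 1 was higher, with a median log2 fold change of -0.06. Over all genes tested, 7.28% were lower and 4.24% higher, with a median of -0.03. Without DMSO library 1, DASA-58 library 1 or DASA-58 library 3 the lower count was 2, the lowest of those with 1 library left out. Traf1, a TRAF adaptor whose gene is a known NF-kB target, fell from 24.2, 23.4 and 24.0 FPKM with DMSO to 17.6, 18.9 and 17.2 FPKM with DASA-58, a log2 fold change of -0.40 (SE 0.041) with an adjusted p of 0.0012. Nfkbia, which encodes the inhibitor IkB alpha, fell from 144, 148 and 149 FPKM to 118, 122 and 120 FPKM, by 0.29 on the log2 scale with an adjusted p of 0.00077. Sqstm1, which encodes the scaffold p62 that binds TRAF6, rose from 357, 349 and 349 FPKM to 399, 409 and 395 FPKM, a log2 fold change of 0.19 with an adjusted p of 0.0036. Traf1, Nfkbia and Sqstm1 were called under all 18 alternatives.

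Nfkb2, the precursor of the noncanonical subunit p52, fell from 118 ± 3.75 to 106 ± 1.21 FPKM (SD, n = 3 each), a log2 fold change of -0.16 with an adjusted p of 0.017 in limma. Its call was kept under 12 of 18 alternatives. It was lost without DMSO library 1 (adjusted p 0.055), DASA-58 library 1 (0.06) or DASA-58 library 3 (0.065). It was also lost with a trimmed mean of log ratios (0.052), without a trend in the variance (0.059) and without variance shrinkage (0.068). The remaining lower gene was Birc2, which encodes the ubiquitin ligase cIAP1 and is named here because it completes the count, after its values were seen. It went from 9.99 ± 0.536 to 8.64 ± 0.295 FPKM (SD, n = 3 each), with a log2 fold change of -0.19 and an adjusted p of 0.044 in limma. It was called under 5 of 18 alternatives, and leaving out any 1 library put its adjusted p between 0.062 and 0.13. The other 15 genes, among them the TAK1 gene Map3k7 and the IkB kinase genes, did not pass. Traf1 and Traf2 were also set against each other within each library, and the log2 ratio of Traf1 to Traf2 went from 0.94, 0.87 and 0.87 to 0.52, 0.72 and 0.55 without overlap.

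Around the M-CSF receptor, all 32 genes listed were tested, 1 was lower and 2 were higher, and the median log2 fold change was -0.02. The shares over all genes tested were 7.28% lower and 4.24% higher. Src, the tyrosine kinase on which the resorbing function of osteoclasts depends, fell from 23.7, 22.3 and 22.2 FPKM to 15.8, 14.6 and 15.0 FPKM, to 66.7% of DMSO. Its log2 fold change was -0.55 (SE 0.043) with an adjusted p of 0.00034 in limma, called under all 18 alternatives. Lyn and Gab1 moved the other way. Lyn, a Src family kinase of myeloid cells, rose from 41.5, 39.1 and 39.5 FPKM to 46.3, 46.0 and 45.0 FPKM, a log2 fold change of 0.19 with an adjusted p of 0.011. Gab1, which is a docking protein related to Gab2, rose from 3.21, 3.51 and 3.3 FPKM to 4.34, 4.12 and 4.26 FPKM, a log2 fold change of 0.27 with an adjusted p of 0.015. The Gab1 call was kept under 13 of the 17 alternatives that tested it. Among the losses were those without DMSO library 1 (adjusted p 0.056), DASA-58 library 1 (0.058) or DASA-58 library 3 (0.056). Relative to Csf1r, Src went from log2 ratios of -3.78, -3.84 and -3.85 to -4.45, -4.47 and -4.49. The 29 other genes, which include the GRB2 partners Sos1 and Sos2, the PI3 kinase subunits and the Ras genes, did not pass.

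The enzymes that shed or cut these receptors and the factors that control the receptor genes were listed as well. Of the 8 shedding and intramembrane cleavage genes, among them Adam17 and Adam10, 0 were called in either direction by limma or with voom weights. Their median log2 fold change was -0.02. At an unadjusted p under 0.05 there were 0 in limma, where 18.0% of all genes tested were lower and 9.83% higher. At that limit 2 were higher and 0 lower with median centring, quantile normalization or a trimmed mean of log ratios. With median centring, 12.8% of all genes were lower and 13.6% higher. Of the 8 receptor gene regulators, 7 were tested, 1 was lower and 1 was higher. For both lists, the shares over all genes tested at the adjusted limit were 7.28% lower and 4.24% higher. Cebpa, which encodes the myeloid factor C/EBP alpha, rose from 34.9, 33.2 and 31.4 FPKM to 44.6, 45.4 and 43.7 FPKM, a log2 fold change of 0.42 (SE 0.042) with an adjusted p of 0.0012, called under all 18 alternatives. Spi1, which encodes PU.1, fell from 259, 258 and 250 FPKM to 229, 232 and 235 FPKM, a log2 fold change of -0.14 with an adjusted p of 0.014. The Spi1 call was lost without DMSO library 1 (adjusted p 0.055), DASA-58 library 1 (0.055) or DASA-58 library 2 (0.051). It was also lost with a trimmed mean of log ratios (0.052), without a trend in the variance (0.063) and with quantile normalization (0.058), which moved the log2 fold change to -0.09.

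Other receptors of the TNF receptor superfamily gave a comparison for Tnfrsf11a. Of 16 listed, 10 were tested, and 0 were lower and 2 were higher in limma, against 7.28% and 4.24% of all genes tested. Their median log2 fold change was 0.03. Tnfrsf12a, at 83.4% of DMSO without overlap, was lower at an unadjusted p under 0.05 in limma and at the adjusted limit with voom weights. Tnfrsf9 was under the expression limit and not tested. It was at 50.1% of DMSO without overlap, on 45 to 64 fragments per DMSO library and 22 to 35 per DASA-58 library. Among the other untested receptors, Eda2r was lower and Tnfrsf18 higher without overlap, each on at most 20 fragments per library. Tnfrsf21, a receptor with a death domain, rose from 8.84, 8.07 and 8.35 FPKM to 10.7, 11.1 and 10.7 FPKM, a log2 fold change of 0.33 (SE 0.043) with an adjusted p of 0.0035. Tnfrsf1a, the TNF receptor expressed on most cells, rose from 84.1 ± 1.32 to 91.5 ± 2.37 FPKM (SD, n = 3 each), with an adjusted p of 0.038. The Tnfrsf1a call was kept under 8 of 18 alternatives and, when libraries were left out in turn, only without DASA-58 library 1. Without DMSO libraries 1, 2 and 3 in turn the adjusted p was 0.075, 0.076 and 0.091, and without DASA-58 libraries 2 and 3 it was 0.12 and 0.13. The receptor tyrosine kinases most like Csf1r (Kit, Flt3, Pdgfra and Pdgfrb) were all under the expression limit, with a summed level of at most 0.921 FPKM.

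Over all of these lists, 78 of 93 genes were tested, 6 were lower (7.69%) and 6 were higher (7.69%). The shares called over the whole table were 7.28% and 4.24%, so the lower share was near the background. The count of lower genes was 3 without DMSO library 1 and without DASA-58 library 1.

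**Figure D4:**
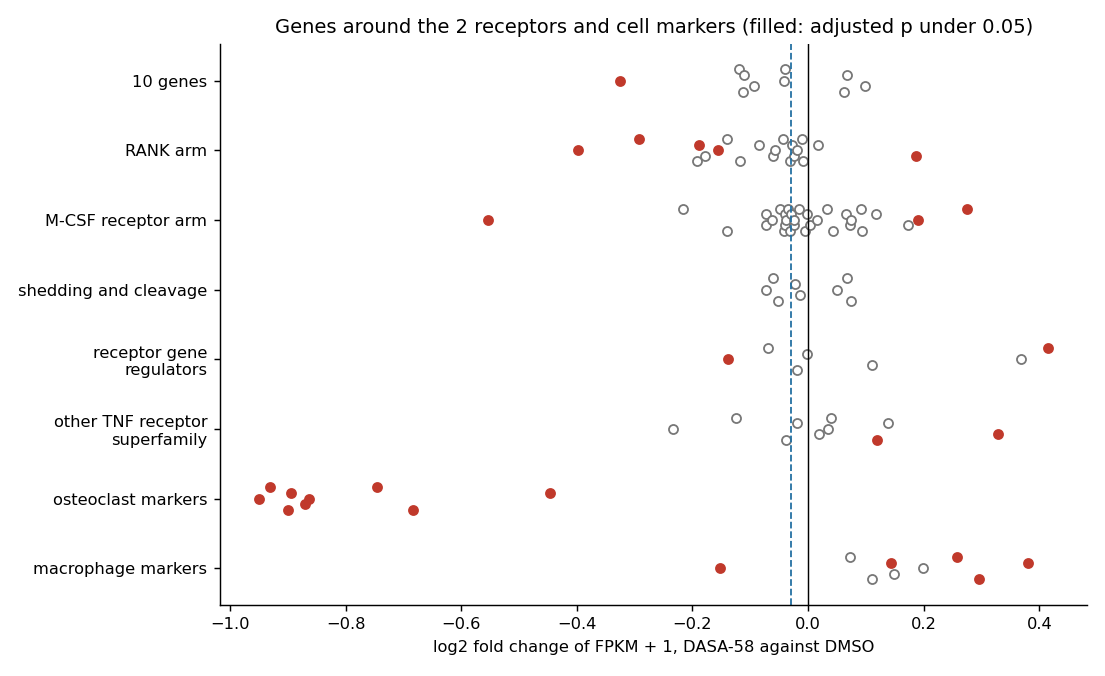
The log2 fold change of FPKM + 1 with DASA-58 against DMSO (horizontal axis) for each tested gene of the lists named on the vertical axis, where small vertical offsets only separate points. Filled red points are called at an adjusted p under 0.05 and the dashed line is the median of all genes tested. Src, at -0.55, and Traf1, at -0.40, are the lowest points of their lists, and the 9 osteoclast markers all lie to the left of 0.

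Over the 6 libraries, the genes whose profile was nearest to Tnfrsf11a were Ivns1abp, Enpp4 and Cd109. Nearness was the root mean square difference of the log2(FPKM + 1) values after each gene was centred on its own mean, which was 0.0192 for Ivns1abp, 0.0235 for Enpp4 and 0.0284 for Cd109. Ivns1abp went from 39.7 ± 1.64 to 31.3 ± 0.929 FPKM, Enpp4 from 3.13 ± 0.312 to 2.3 ± 0.0483 FPKM and Cd109 from 5.03 ± 0.334 to 3.76 ± 0.156 FPKM (SD, n = 3 each). The nearest to Csf1r were Rgs2, Pld1 and Rragc, at 0.00961, 0.00974 and 0.0121. Rgs2 went from 16.7 to 17.5 FPKM, Pld1 from 1.77 to 1.91 FPKM and Rragc from 69.5 to 72.9 FPKM at the means. These 6 genes were picked for their likeness, so their values are a description and carry no test.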

How the data were processed

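RNA-seq values of 6 BMM libraries (3 DMSO, 3 DASA-58) were used as the authors deposited them, as FPKM in 1 table of 23504 genes. The submitters' processing notes name HISAT2 2.1.0, HTSeq 0.6.0 and the build mm8, while the annotation, the use of strand and the tool that computed FPKM are not given in the sources used here. With exon lengths of GENCODE mouse release 21 (GRCm38), 21367 genes (90.9%) gave whole fragments in every library, within 0.02 of a fragment, so genes were located on GRCm38. A fitted length gave whole fragments for 1520 more genes, Csf1r and Tab1 among them, and 617 stayed unrecovered. All value columns were mapped to samples and 0 were left out. Symbols matched 23455 identifiers.

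limma 3.58.1 in R 4.3.3 was run on log2(FPKM + 1) on the 10965 genes averaging 1 FPKM or more, with eBayes and a variance trend, all 6 libraries and no block, and p was adjusted by the Benjamini-Hochberg method. The pseudocount of 1 understates changes of genes with low values. Ratios were tested by an exact two-sided permutation test (SciPy 1.17.1). The fit was tested on simulated data. Recovered fragments entered 1 alternative, with voom weights. Fragment ranges and the floor of 3 fragments cover counting error only.

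The members and lists were chosen with earlier results of these data known. Named were the 10 genes, all ligand and decoy genes, up to 4 called genes of each other list by smallest p, and the 3 tested genes nearest to each receptor. A log2 fold change beyond 1 and ratios to each adaptor without each library were added after seeing the data.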

Additional observations from a re-analysis of the deposited data

How the results depend on the processing

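Tnfrsf11a stayed lower and called under all 18 alternatives, and the other 9 genes were called under none, so the count of lower genes among the 10 was 1 throughout, except that it was 0 when a log2 fold change beyond 1 was also required, with either adjusted or unadjusted p. Over the pathway lists, 6 genes were lower, which became 3 with a trimmed mean of log ratios, 3 with no trend in the variance and 10 with voom weights, and between 3 and 5 when libraries were left out in turn, 3 without DMSO library 1 or DASA-58 library 1. The cause of these changes was not tested. The count of 6 higher genes was 7 with the trimmed mean, median centring or quantile normalization (against 3, 5 and 4 lower), 5 with no trend and 9 with voom weights, and it ranged from 4 to 6 as libraries were left out. Over the whole table, the 798 lower and 465 higher genes became 1297 and 713 with voom weights, 314 and 227 without variance shrinkage, 515 and 341 without the trend, 372 and 257 without a filter, 504 and 597 with median centring, 499 and 597 with the trimmed mean, and 387 to 603 and 272 to 375 with a library left out. With voom weights Csf1 passed the test, at a log2 fold change of 0.26 and an adjusted p of 0.031 in limma. Enpp4 was picked for its likeness to Tnfrsf11a, so its call in limma is a description and no test. That call was lost without each of DMSO libraries 1 and 3 and DASA-58 libraries 1, 2 and 3 (adjusted p 0.081, 0.066, 0.076, 0.061 and 0.076). Lyn lost its call only without variance shrinkage (adjusted p 0.053).

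Replicate numbers did not pair the libraries: the deviations of libraries with the same number correlated at -0.015, 0.016 and -0.016, and 0 of 6 libraries correlated best with its own number. With the number as a replicate block, 579 genes of the whole table were lower and 378 higher, Tnfrsf11a stayed at -0.32 with an adjusted p of 0.017, and the pathway lists had 5 lower and 5 higher. The ratio of Tnfrsf11a to Csf1r kept a difference of -0.40 within pairs, where the exact permutation test allows no p under 0.25. Traf6, with at most 649 fragments per library, and Tab1, with the largest error, limit how small a change among the adaptors could be seen.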
